A study of Salmo salar with 26 samples.

Results

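Among 14 Atlantic salmon (Salmo salar) lenses with cataract, 8 had keratin-18 transcript levels above every lens without cataract and 6 did not. The members were chosen by the level of 1 transcript contig, Unigene7304, whose best protein match is keratin-18. A lens with cataract was called high when its RPKM exceeded the maximum of the 12 lenses without cataract, and low otherwise. RPKM is a read count divided by the length of the contig and by the size of the library. The 8 high lenses were 3 of the 6 diploid (2N+) and 5 of the 8 triploid (3N+) lenses with cataract, and the 6 low lenses were the other 3 of each ploidy. The 12 lenses without cataract were 6 diploid (2N-) and 6 triploid (3N-), which made 26 libraries in all. Each library came from its own fish, so the p-values measure the spread between fish. The sample labels used here give ploidy, cataract, body weight and length, and no treatment is among them. The labels record cataract as present or absent, so the extent of the opacity is not known for any lens. The age of the fish is not given in the sources used here.

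Keratin-18 is an intermediate filament protein of simple epithelia that assembles with keratin-8. The lens is built from a single layer of epithelial cells on its front face and from long fibre cells, which hold the crystallins that refract light and which use vimentin and beaded filaments in place of keratins. Cataract is a loss of lens transparency, and in mammals epithelial cells of an injured lens can take on mesenchymal or wound-like features.

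The libraries held 9.76 to 11.95 M counted reads. Crystallins took 43.7 ± 2.32% (SD, n = 8) of the summed RPKM in high lenses and 45.3 ± 2.55% (n = 6) in low lenses. Contigs are called by the name of the protein they matched best, so several contigs can carry 1 name, and near-identical copies of a salmon gene may share reads. For bulk tissue such as this, fewer cells of a type and less RNA per cell cannot be told apart.

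Keratin-18 (Unigene7304) lay well apart in the 2 sets, as the choice of lenses required. In the high diploid lenses it was 24.6, 76.1 and 12.3 RPKM, and in the high triploid lenses 100.5, 11.01, 36.1, 171.7 and 37.9 RPKM. In the low lenses it was 1.60, 4.34 and 2.11 RPKM in diploids and 3.54, 3.15 and 2.60 RPKM in triploids. The lenses without cataract ran from 0.927 to 5.45 RPKM, with a median of 2.40 RPKM. The lens just inside the threshold was 3N+ replicate 3 at 11.01 RPKM, and the one just outside it was 2N+ replicate 2 at 4.34 RPKM. No lens with cataract lay between 4.34 and 11.01 RPKM, and a threshold at 2 times the maximum gave the same sets. The range among the high lenses was wide, and the low lenses lay inside the range of lenses without cataract.

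**Figure D1:**
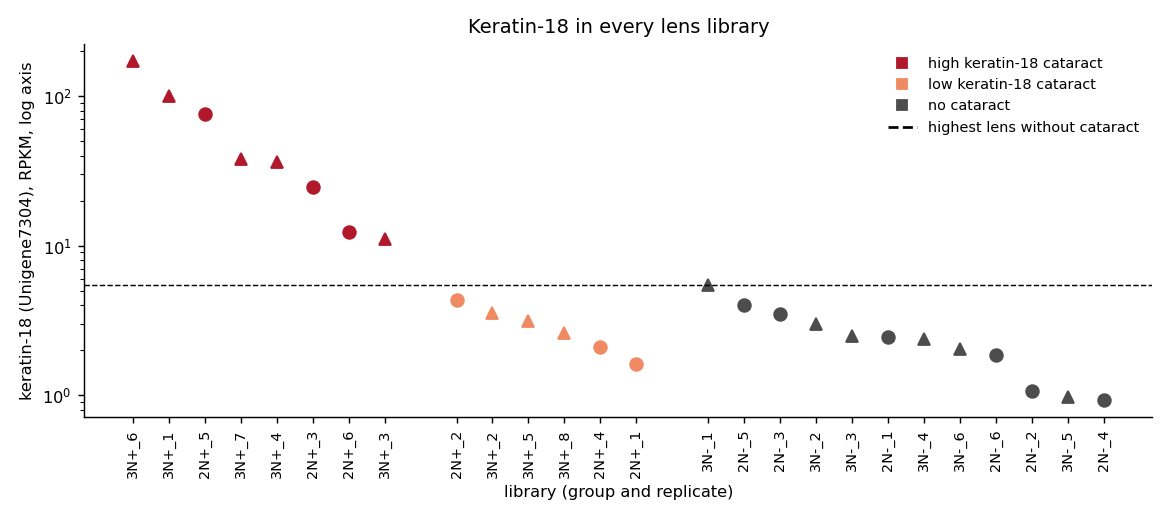
Keratin-18 (Unigene7304) in RPKM on a log axis for each of the 26 libraries, with high keratin-18 cataract lenses at the left, low keratin-18 cataract lenses in the middle and lenses without cataract at the right. Each point is 1 library, circles are diploids and triangles triploids. The 8 high lenses run from 11.01 to 171.7 RPKM, above the dashed line at 5.45 RPKM, the highest lens without cataract.

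The other 3 contigs named keratin-18 followed the same lenses and were left out of every count below. The median over high lenses, over low lenses and over lenses without cataract was 38.7, 3.00 and 2.54 RPKM for CL2963.Contig1, 39.4, 2.65 and 8.12 RPKM for CL2631.Contig1, and 15.6, 1.13 and 3.00 RPKM for Unigene7303. CL2631.Contig1 and Unigene7303 each reached into the range of the high lenses in at least 1 low lens, with low maxima of 13.4 RPKM and 6.32 RPKM against high minima of 12.3 RPKM and 5.58 RPKM.

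The comparison of high with low lenses asked which other transcripts went with keratin-18 among lenses that all had cataract. The leptin b, hepcidin-1, insulin-like growth factor binding protein 2, annexin A2, clusterin and keratin-8 transcripts were among those that rose. Of 17253 unigenes tested with limma, 39 passed an adjusted p of 0.05, or 0.226%, of which 36 rose (0.209%) and 3 fell (0.0174%). On RPKM as deposited, 28 of the 36 lay above all 6 low lenses in all 8 high lenses, and over all tested unigenes 51 did (0.296%). Of the 3 that fell, 1 lay below all 6 low lenses in all 8 high lenses, as did 2 of all tested unigenes (0.0116%), so that 53 did not overlap in either direction (0.307%). Because keratin-18 defined the sets, these p-values ask whether a transcript varied together with keratin-18 over 14 lenses, and they say nothing about the split itself or about opacity. The count ran from 5 to 84 when each lens was left out in turn. It moved by more than 1.5 times without 2N+ replicates 1, 3, 4, 5 or 6 (10, 5, 9, 8 or 84 unigenes) and without 3N+ replicates 1, 2, 3, 5, 7 or 8 (7, 5, 78, 19, 10 or 6 unigenes). With body weight as a term 12 unigenes passed. Leptin b and the binding protein kept their calls there (adjusted p = 0.0137 for each), as did glucose phosphate isomerase b (0.047). Hepcidin-1, both annexin A2 contigs, clusterin and keratin-8 lost theirs (adjusted p from 0.0671 to 0.0878). So did both JUN-B contigs, the contigs like proteinase-activated receptor 1, cadherin-2 and ankyrin-3, and tissue-type plasminogen activator (adjusted p from 0.0624 to 0.0678).

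The filter on reads bears on these calls. A unigene was tested when more than 10 scaled reads were counted in at least 6 of the 14 lenses, and 27 of the 36 higher unigenes met that limit in fewer than 6 low lenses, so they were tested because of their level in high lenses. Of the 12 higher transcripts named by rule, 9 were among these 27. In 10 of the 36 no low lens met the limit, as in 34 of all 17253 tested. The counts over the 36 unigenes are therefore descriptions. Without the filter 35 unigenes passed, 31 of them shared with the 39.

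Among secreted factors, the leptin b transcript (Unigene7501) differed most among the named transcripts. Leptin is a peptide hormone, known in mammals for its control of appetite and energy stores, and bony fish carry duplicated leptin genes. Leptin b was 46.7, 186.7 and 11.8 RPKM in the high diploid lenses and 79.0, 23.9, 57.4, 373.8 and 59.1 RPKM in the high triploid lenses. In low lenses it was 0.246, 0.639 and 0 RPKM in diploids and 0.756, 0.988 and 0.133 RPKM in triploids, 22 reads in all. Lenses without cataract ran from 0 to 1.42 RPKM. The lowest high lens was thus above the highest of all other lenses, and the difference was 5.99 ± 0.66 (log2, SE; adjusted p = 0.00407, and 0.00285 without the filter). No low lens met the limit on reads, so leptin b was tested only through the high lenses, and the size of the difference depends on the pseudocount. The match is to a leptin b of a grouper (Epinephelus coioides) with an E-value of 4.39e-14, so the identity is less firm than for hits to salmon proteins. Unigene7502, a contig with no protein match, behaved alike, with 4.49 to 143.9 RPKM (median 28.2 RPKM) in high lenses against 0 to 0.233 RPKM in low lenses, a total of 2 reads there. It too was tested only through the high lenses.

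Hepcidin-1 (CL2143.Contig1), the peptide hormone that limits iron export from cells and is also an antimicrobial peptide, ran from 6.27 to 377.8 RPKM (median 43.3 RPKM) in high lenses. It ran from 0.299 to 1.68 RPKM (median 0.927 RPKM) in low lenses and from 0.170 to 2.61 RPKM in lenses without cataract. The sets did not overlap, and the difference was 4.64 ± 0.82 (log2, SE; adjusted p = 0.0421, and 0.0325 without the filter). Only 1 low lens met the limit on reads, so hepcidin-1 too was tested because of the high lenses, and it passed in 3 of the 14 fits that left out 1 lens. Insulin-like growth factor binding protein 2 (Unigene7674), which binds insulin-like growth factors outside cells, was 62.5, 37.2 and 17.2 RPKM in high diploid lenses and 15.6, 20.4, 8.01, 54.4 and 12.99 RPKM in high triploid lenses. In low lenses it was 0.821, 4.91 and 0.692 RPKM in diploids and 0.281, 2.96 and 0.443 RPKM in triploids. Lenses without cataract reached 6.49 RPKM, so all 8 high lenses lay above both other sets, by 3.81 ± 0.45 (log2, SE; adjusted p = 0.00407) against low lenses. It met the limit on reads in 4 of 6 low lenses, so it too was tested because of the high lenses. It passed in all 14 fits that left out 1 lens, which used the same filtered unigenes.

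Clusterin (CL938.Contig1), a secreted chaperone, ran from 26.5 to 197.6 RPKM (median 62.5 RPKM) in high lenses and from 5.64 to 31.0 RPKM (median 7.41 RPKM) in low lenses. The rise was 2.58 ± 0.47 (log2, SE; adjusted p = 0.0461), and the contig passed in 4 of the 14 fits without 1 lens. The low lens at 31.0 RPKM, 2N+ replicate 2, lay above 1 of the 8 high lenses and above all lenses without cataract, whose maximum was 25.5 RPKM. A second contig named for clusterin (Unigene12784) overlapped between the sets and did not pass (2.35 ± 0.69, adjusted p = 0.291). Tissue-type plasminogen activator (Unigene14231), the protease that turns plasminogen into plasmin, rose by 1.09 ± 0.21 (adjusted p = 0.0432). It had 3.70 to 8.31 RPKM in high lenses against 1.01 to 2.60 RPKM in low lenses. The limit on reads was met in 5 low lenses, so it was tested because of the high lenses. It passed in 2 of the 14 fits without 1 lens and did not pass without the filter (adjusted p = 0.0525).

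**Figure D2:**
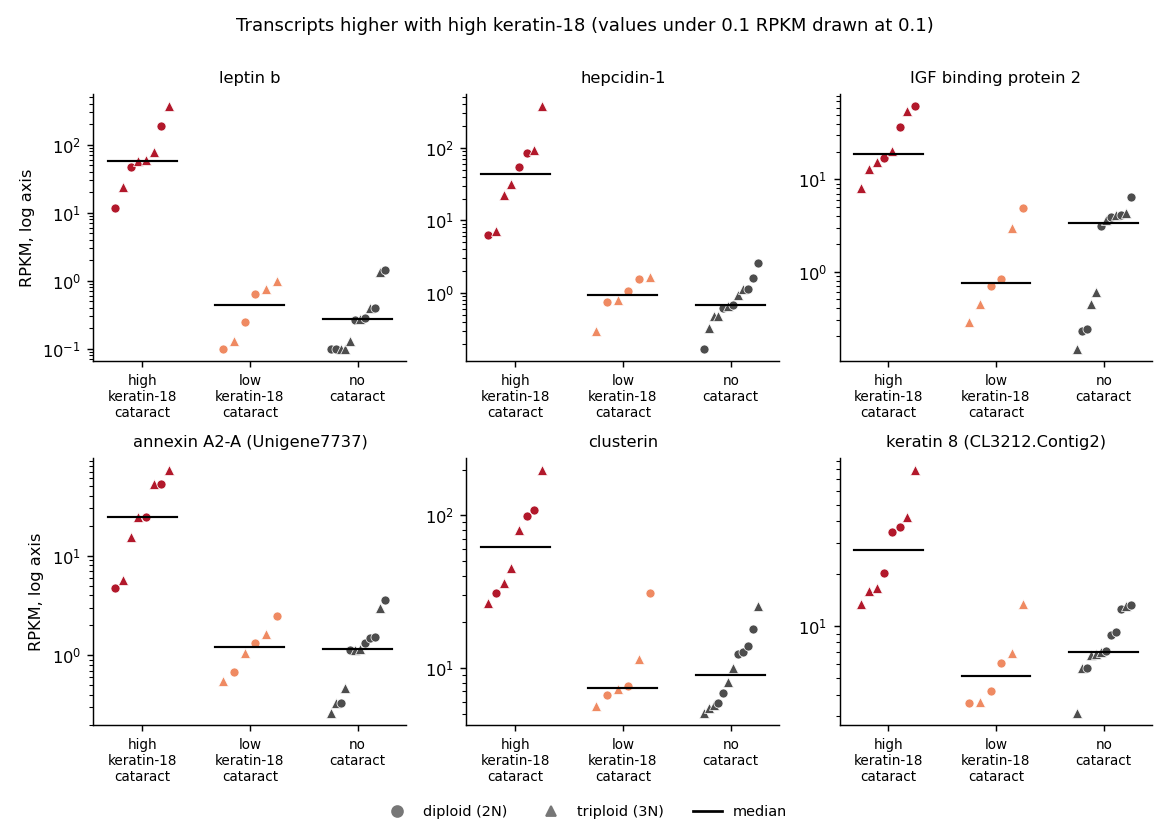
RPKM on log axes of 6 transcripts in high keratin-18 cataract lenses, low keratin-18 cataract lenses and lenses without cataract, from left to right. Each point is 1 library and the black line the median of a set, and values under 0.1 RPKM are drawn at 0.1. For leptin b, hepcidin-1, insulin-like growth factor binding protein 2 and annexin A2-A every high lens lies above every other lens, and for clusterin 1 low lens at 31.0 RPKM reaches into the high set.

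Keratin-8, the filament partner of keratin-18, was higher in the same lenses. A short contig of 259 bases (CL3212.Contig2) ran from 13.3 to 79.0 RPKM (median 27.3 RPKM) in high lenses and from 3.59 to 13.3 RPKM (median 5.12 RPKM) in low lenses, and rose by 2.05 ± 0.38 (log2, SE; adjusted p = 0.0439). It passed in 5 of the 14 fits without 1 lens. The longer contig (CL3212.Contig1, 2244 bases) had 33.8 to 165.0 RPKM against 23.7 to 39.3 RPKM and did not pass (1.14 ± 0.23, adjusted p = 0.0648). Both contigs matched keratin-8 and may share reads. Of the 7 tested keratins and keratin partners outside keratin-18, 1 rose and 0 fell, beside 0.209% and 0.0174% over all tested unigenes. Their median difference was -0.01, the same as over all tested unigenes (-0.01). The most abundant of them, a KRT222-like contig (Unigene8578), was 73.1 RPKM in the median high lens and 66.8 RPKM in the median low lens (difference -0.01, adjusted p = 0.992).

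Annexin A2, a membrane-binding protein that depends on calcium and binds S100 partners, rose in both of its contigs. Unigene7737 ran from 4.76 to 72.1 RPKM (median 24.4 RPKM) in high lenses against 0.552 to 2.47 RPKM in low lenses (3.62 ± 0.63, adjusted p = 0.0386). CL249.Contig1 ran from 8.90 to 41.7 RPKM against 3.16 to 5.26 RPKM (1.83 ± 0.35, adjusted p = 0.0492). The sets did not overlap for either contig, and the contigs passed in 4 and 3 of the 14 fits without 1 lens. Unigene7737 met the limit on reads in 5 low lenses, so it was tested because of the high lenses. Without the filter Unigene7737 passed (adjusted p = 0.0306) and CL249.Contig1 did not (adjusted p = 0.0548). Of 50 tested annexins, galectins and actin regulators these were the 2 that rose and 0 fell, and the list's median difference was 0.09. Over all tested unigenes 0.209% rose and 0.0174% fell. Annexin A5 (Unigene4403), named after its values were seen, stood at 1.79 ± 0.37 (adjusted p = 0.0715).

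The S100 calcium-binding proteins did not pass in any of 6 tested contigs, although their median difference was 1.32. On RPKM as deposited 1 of the 6 passed (median 1.43), as did 47 of all 17253 tested unigenes. Ictacalcin (Unigene4061), an S100 protein of fish epithelia, ran from 73.0 to 1452.5 RPKM (median 412.6 RPKM) in high lenses and from 5.95 to 92.3 RPKM (median 28.2 RPKM) in low lenses. In lenses without cataract it ran from 2.20 to 22.4 RPKM (median 5.07 RPKM). One high lens lay inside the range of the low lenses, and 4 of 6 low lenses lay above every lens without cataract. The high against low difference was 3.83 ± 0.80 (log2, SE; adjusted p = 0.0812), and the low against clear difference was 1.98 ± 0.52 (adjusted p = 0.242). The second ictacalcin contig (Unigene9373) stood at 3.98 ± 0.88 (adjusted p = 0.105) and S100-A1 (Unigene3929) at 2.02 ± 0.43 (adjusted p = 0.0856).

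JUN-B, a transcription factor of the AP-1 family that is induced early after many stimuli, was represented by 4 contigs. Unigene2388 ran from 5.67 to 31.6 RPKM in high lenses against 1.502 to 4.97 RPKM in low lenses (1.98 ± 0.36, adjusted p = 0.0386). Unigene4111 ran from 5.09 to 15.4 RPKM against 2.22 to 3.89 RPKM (1.31 ± 0.25, adjusted p = 0.0432). Both rose without overlap. The limit on reads was met in 2 low lenses for Unigene2388 and in 4 for Unigene4111, so both were tested because of the high lenses. They passed in 4 and 2 of the 14 fits without 1 lens. Without the filter Unigene2388 passed (adjusted p = 0.0366) and Unigene4111 did not (adjusted p = 0.0506). The remaining contigs, named after their values were seen, did not pass, with 1.82 ± 0.36 for Unigene2387 (adjusted p = 0.0632) and 0.60 ± 0.19 for Unigene9697 (adjusted p = 0.311). Unigene9697 is the longest of the 4 at 1720 bases, and the passing contigs have 280 and 302 bases.

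A contig like proteinase-activated receptor 1 (Unigene16044), the receptor that thrombin cleaves, ran from 4.51 to 15.6 RPKM in high lenses and from 1.39 to 3.24 RPKM in low lenses (1.71 ± 0.29, adjusted p = 0.0333). A cadherin-2-like contig (Unigene5671), named for the N-cadherin that joins lens cells, ran from 7.40 to 21.9 RPKM in high lenses and from 2.26 to 7.01 RPKM in low lenses (1.42 ± 0.26, adjusted p = 0.037). Only 1 low lens met the limit on reads for Unigene16044 and 4 did for Unigene5671, so both were tested because of the high lenses. They passed in 6 and 5 of the 14 fits without 1 lens. Other contigs with these names did not pass, at 1.60 ± 0.33 for a receptor contig (Unigene20093, adjusted p = 0.0654) and 1.24 ± 0.27 for a cadherin-2 contig (Unigene12506, adjusted p = 0.0835). A further cadherin-2-like contig (CL1218.Contig1), the most abundant of that name, was 121 RPKM in the median high lens against 107 RPKM in the median low lens (0.12 ± 0.12, adjusted p = 0.837).

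The remaining passing contigs with a protein match had a mean below the abundance limit for naming and were named after their values were seen. They were a contig like junctional adhesion molecule A (Unigene13817, 3.40 ± 0.57), a 14 kDa transmembrane protein (Unigene19539, 3.33 ± 0.55), a contig like the receptor kinase Mer (Unigene14997, 1.28 ± 0.25) and a contig like the G protein subunit alpha-12 (Unigene15839, 0.88 ± 0.16), with adjusted p-values from 0.0333 to 0.0447. No low lens met the limit on reads for Unigene13817 or Unigene19539, and only 1 did for Unigene14997 and for Unigene15839. These contigs were thus tested because of the high lenses. Of the 39 passing unigenes, 18 had a protein match and 21 had none.

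Transcripts lower in high lenses were few. An ankyrin-3-like contig (Unigene6709), named for a protein that ties membrane proteins to the spectrin cytoskeleton, ran from 4.15 to 8.52 RPKM (median 6.99 RPKM) in high lenses and from 6.87 to 15.5 RPKM (median 12.98 RPKM) in low lenses, and fell by 0.91 ± 0.16 (log2, SE; adjusted p = 0.0367). Glucose phosphate isomerase b (CL2696.Contig2), an enzyme of glycolysis, ran from 12.4 to 26.0 RPKM against 20.6 to 31.99 RPKM and fell by 0.78 ± 0.13 (adjusted p = 0.0236). The sets overlapped for both. Another contig of the same enzyme (CL2696.Contig1) stood at -0.06 ± 0.11 (adjusted p = 0.922). The other lower unigene (Unigene5490) had no protein match and was below all lenses without cataract in all 8 high lenses (-1.35 ± 0.22, adjusted p = 0.0236). It met the limit on reads in 1 high lens and in 6 low lenses, so it was tested because of the low lenses.

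**Figure D3:**
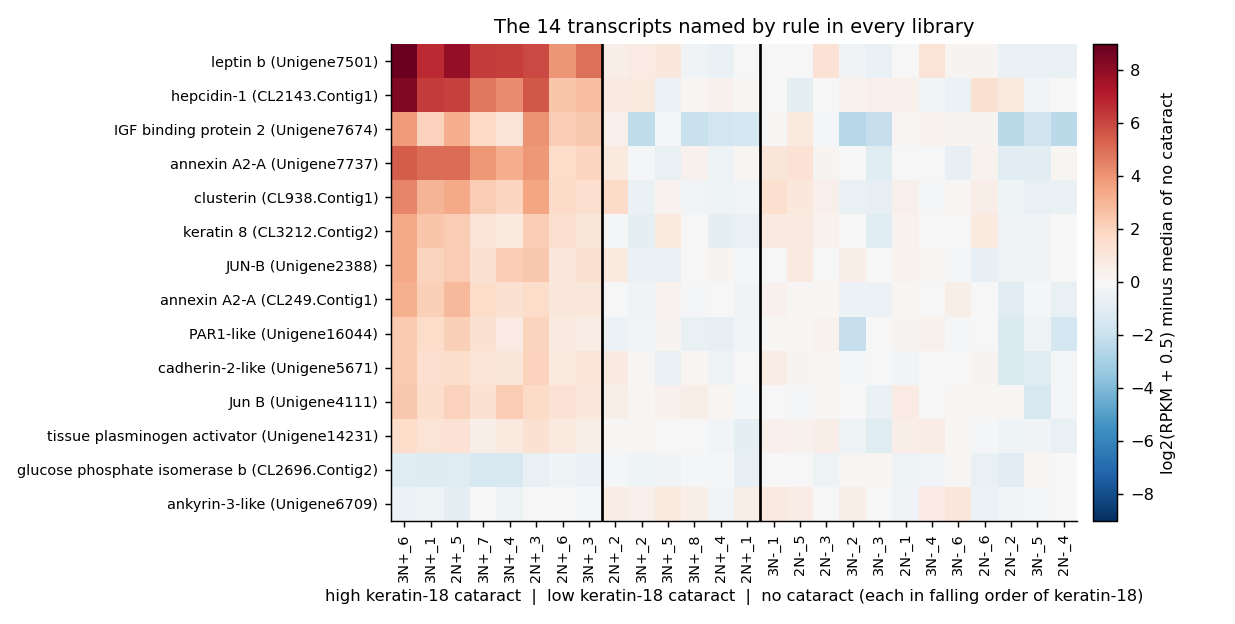
The 14 transcripts named by rule, with each cell giving log2(RPKM + 0.5) minus the median of the lenses without cataract, for each of the 26 libraries. The libraries are high keratin-18 cataract, low keratin-18 cataract and no cataract from left to right, each in falling order of keratin-18. The 12 higher transcripts are red over the 8 high lenses, with 3N+ replicate 6 highest in 11 of them and 2N+ replicate 3 in the binding protein. Elsewhere the binding protein is blue in lenses of both other sets, down to 0.145 RPKM against a median of 3.38 RPKM in lenses without cataract, and the lowest rows are the 2 that fell.

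Among the high lenses, the order by keratin-18 and by the named transcripts could be compared. 3N+ replicate 6, at 171.7 RPKM of keratin-18 the highest lens, was also the highest of the 8 for 11 of the 12 higher named transcripts. The 2 high lenses with the lowest keratin-18, 3N+ replicate 3 and 2N+ replicate 6, were among the lowest 2 high lenses for 10 and 8 of the 12. These ranks describe the same transcripts and lenses that the comparison used and carry no test. Relative to lenses without cataract, which the choice of lenses used, 25 of the 36 higher unigenes lay above all 12 such lenses in all 8 high lenses, and over all tested unigenes 125 did (0.725%), with 32 below (0.185%). In 23 of the 36 no low lens lay above every lens without cataract. The share over all tested unigenes was not counted, so this number is a description only.

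Both ploidies had lenses of both sets, in 3 of 6 diploids and 5 of 8 triploids that were high (Fisher's exact test, two-sided, p = 1). Within each ploidy separately, every high lens lay above every low lens for 33 of the 36 higher unigenes, against 119 of all tested unigenes (0.69%). The 36 were picked in these same lenses, and 28 of them did not overlap over all lenses. Their separation within each ploidy followed from that, so this count is no separate support. Fits in diploids alone and in triploids alone called 0 unigenes each. Of the 3 lower unigenes 1 was below within both ploidies, against 6 of all tested (0.0348%). Leptin b averaged 81.7 RPKM in high diploids and 118.7 RPKM in high triploids, against 0.295 RPKM in low diploids and 0.626 RPKM in low triploids. The difference between high and low lenses did not differ between ploidies at the adjusted threshold for any of 17253 unigenes with limma (0%), and 537 had an unadjusted p below 0.05. The smallest p-values among named contigs were those of 4 hemoglobins, the oxygen carriers of red blood cells, with adjusted p from 0.288 to 0.457. Hemoglobin alpha-4 (Unigene8162) ran from 4.60 to 257.4 RPKM in high lenses and from 2.44 to 457.4 RPKM in low lenses. In diploids it averaged 20.6 RPKM in high and 268.9 RPKM in low lenses. In triploids it averaged 124.8 RPKM in high and 12.6 RPKM in low lenses, the opposite direction. The high minus low difference in triploids thus exceeded that in diploids by 7.82 on the log2 scale (adjusted p = 0.457). The protocadherin-1-like contig (Unigene4010) was next (1.41, adjusted p = 0.971).

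The fish and the libraries were compared on 5 measures with exact permutation tests of the difference in means, two-sided, and the p-values were adjusted over all 5. High lenses came from fish of 270 to 885 g and low lenses from fish of 325 to 860 g, and on the log2 scale the difference was -0.11 (exact permutation p = 0.714, adjusted p = 0.725). Lengths ran from 30 to 41 cm in high fish and from 33 to 41.5 cm in low fish (exact permutation p = 0.725, adjusted p = 0.725). The high libraries held 10.97 ± 0.584 M reads (SD, n = 8) and the low libraries 11.65 ± 0.325 M reads, a difference of -0.6785 M (exact permutation p = 0.0133, adjusted p = 0.0666). The crystallin share differed by -1.57 percentage points (exact permutation p = 0.244, adjusted p = 0.407). The part of the read difference in the transcripts above was not tested.

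Connexin 43 (CL2590.Contig1), a gap junction protein of the lens epithelium, served as the single marker of that layer. It was 109.5, 23.7 and 96.5 RPKM in high diploid lenses and 7.89, 73.4, 2.40, 26.0 and 4.44 RPKM in high triploid lenses. In low lenses it was 0.560, 78.0 and 5.09 RPKM in diploids and 1.78, 62.8 and 1.42 RPKM in triploids. Both sets held libraries with high and with low connexin 43, and the log2 difference was 1.65 (exact permutation p = 0.201, adjusted p = 0.407). With connexin 43 as a term in the fit, 42 unigenes passed, 35 higher and 7 lower, 25 of them shared with the 39. Leptin b (adjusted p = 0.0165), insulin-like growth factor binding protein 2 (0.00248) and Unigene7737 of annexin A2 (0.0438) passed in that fit. So did both JUN-B contigs (0.0362 for each), the contigs like proteinase-activated receptor 1 (0.0365) and cadherin-2 (0.0362), and glucose phosphate isomerase b (0.0342). Hepcidin-1 (0.065), clusterin (0.103), the keratin-8 contig (0.0874) and CL249.Contig1 of annexin A2 (0.062) did not. Nor did tissue-type plasminogen activator (0.0647) or the ankyrin-3-like contig (0.0526). Other abundant lens epithelium contigs did not all follow connexin 43. Sox-2 (CL858.Contig1) was 15.5 and 17.5 RPKM in the low lenses with 78.0 and 62.8 RPKM of connexin 43. It was 21.6 to 34.8 RPKM in the other low lenses. Six3 (Unigene3730) was 19.6 and 8.72 RPKM against 4.77 to 7.01 RPKM in the same order. High against low, CL858.Contig1 stood at 0.03 ± 0.26 and Six3 at 0.83 ± 0.25 (adjusted p = 0.983 and 0.285). The part of epithelial RNA in the results was not otherwise tested.

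**Figure D4:**
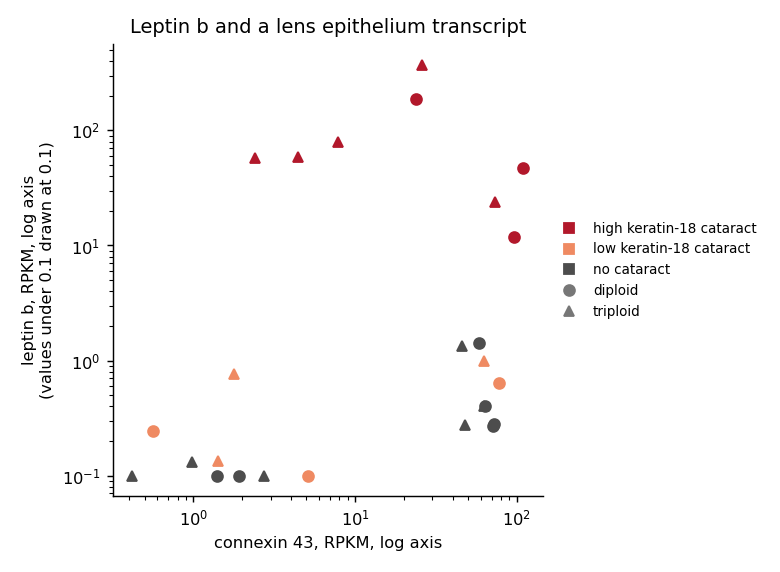
Leptin b against connexin 43 in RPKM, both on log axes, for the 26 libraries, with values of leptin b under 0.1 RPKM drawn at 0.1. Colours give the 3 sets and symbols the ploidy. The 8 high keratin-18 lenses lie at 11.8 RPKM of leptin b or more over connexin 43 levels from 2.40 to 109.5 RPKM, and the low lenses and lenses without cataract stay at or under 1.42 RPKM.

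Gene lists of lens and stress biology are given by their counts and by the median high against low difference (log2), beside a median of -0.01 over all tested unigenes, or 0.10 on RPKM as deposited. Over all 17253 tested unigenes 0.226% passed and 8943 had a negative difference. On RPKM as deposited 5470 of them were negative, and with connexin 43 as a term 8572 were positive. Of 61 tested crystallins 0 passed in either direction, with a median difference of -0.17 and 59 negative. On RPKM as deposited 43 of 61 were negative, and with connexin 43 as a term the median turned to 0.07 with 46 positive. Of 31 lens fibre contigs 0 passed (median -0.10, 0.01 on RPKM as deposited), and of 25 lens epithelium contigs 0 passed (median 0.21, -0.10 with connexin 43 as a term). Of 53 matrix, mesenchymal transition and wound contigs 1 rose, the cadherin-2-like contig, and 0 fell (median 0.18, which turned to -0.19 with connexin 43 as a term). Vimentin (Unigene7433), the filament protein of lens cells, ran from 751 to 1990.4 RPKM in high lenses and from 1313 to 1822 RPKM in low lenses (-0.26 ± 0.15, adjusted p = 0.677). Tissue inhibitor of metalloproteinases 2 (CL2946.Contig1), named after its values were seen, stood at 1.22 ± 0.28 (adjusted p = 0.105).

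Of 46 immune and inflammatory contigs (median 0.04) hepcidin-1 alone passed, beside 0.226% over all tested unigenes. Hepcidin-1 met the limit on reads in 1 low lens, so it was tested because of the high lenses. In 84 heat shock proteins and chaperones (median -0.04), 52 antioxidant and glutathione contigs (0.08), 35 calcium handling and calpain contigs (0.03), 15 ion and water transport contigs (0.21), 10 cell cycle contigs (-0.02) and 23 apoptosis and p53 contigs (-0.07), 0 passed. Likewise 0 passed among 355 proteasome and ubiquitin contigs (-0.02), 83 cytosolic ribosomal proteins (-0.07, 0.04 on RPKM as deposited), 114 oxidative phosphorylation contigs (-0.02), 22 sterol synthesis contigs (-0.04) and 67 fatty acid and sphingolipid contigs (-0.15). In the last list, the heart-type fatty acid-binding protein contig CL1387.Contig2, a lipid carrier, had 35.3 to 94.9 RPKM in high lenses against 64.1 to 130.8 RPKM in low lenses (-0.79 ± 0.17, adjusted p = 0.0715). Across all 17253 unigenes the limma test had 1501 with an unadjusted p below 0.05.

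Markers of other cell types were checked because keratin-18 and keratin-8 also belong to surface epithelia such as cornea and skin. The 18 surface epithelium contigs summed to 119.6 to 287.7 RPKM in high lenses (median 227.1 RPKM), to 149.4 to 218.4 RPKM in low lenses (median 165.2 RPKM) and to 123.0 to 203.3 RPKM in lenses without cataract. Of its 14 tested members 0 passed, 10 had a positive difference, and the median difference was 0.15. Over all tested unigenes 8310 of 17253 had a positive difference. Annexin A1 (Unigene2994) had 15.1 to 79.1 RPKM in high lenses against 6.39 to 15.4 RPKM in low lenses (1.21 ± 0.32, adjusted p = 0.19). The other abundant members differed less. Junction plakoglobin stood at -0.09 ± 0.11 (CL381.Contig1, adjusted p = 0.864) and -0.24 ± 0.14 (CL3524.Contig1, adjusted p = 0.686). Periplakin (Unigene8632) stood at 0.17 ± 0.24 (adjusted p = 0.892). The 4 epithelial cadherin contigs (Unigene10022, Unigene15425, Unigene20813 and Unigene21370), of the adhesion protein that defines epithelia, had medians of 9.51, 6.70, 6.59 and 4.77 RPKM in high lenses against 4.51, 3.62, 2.93 and 3.01 RPKM in low lenses. These and the next contigs were named after their values were seen. The median of claudin-5 (Unigene13658), a tight junction protein, was 3.53 RPKM in high lenses against 0.921 RPKM in low lenses. Desmoplakin-like (Unigene16401) and desmoglein-2-like (Unigene17118) contigs, of desmosomes, had medians of 0.826 and 1.19 RPKM in high lenses against 0.19 and 1.31 RPKM in low lenses. The part of such cells in the high lenses was not tested.

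The 4 leukocyte contigs summed to 0.0438 to 3.48 RPKM in high lenses and 0.832 to 3.26 RPKM in low lenses, and the MHC class II beta contig was at 0 in all 14. Erythrocyte markers (4 contigs) summed to 16.6 to 691.3 RPKM in high lenses and 7.89 to 1374 RPKM in low lenses, with 0 passing and a median difference of 0.20. Retina markers (18 contigs, 6 tested) summed to 2.61 to 883.6 RPKM in high lenses and 14.5 to 3322 RPKM in low lenses. The 6 tested retina contigs all had negative differences (median -1.33) and 0 passed. Over all tested unigenes 8943 of 17253 had a negative difference. Rod opsin (Unigene8815), the visual pigment of rods, was 2462 RPKM in 2N+ replicate 2, a low lens, and 555.3 RPKM in 2N+ replicate 3, a high lens. Of the 6 muscle and vessel contigs and the 1 pigment cell contig tested, 0 passed (medians -0.14 and -0.21). The part of retina and blood in the results was not tested.

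The low lenses were compared with lenses without cataract to see what differed where keratin-18 did not. This comparison shares the low libraries with the one above, so the values are set side by side only. Limma called 7 of 17931 unigenes (0.039%), 3 higher and 4 lower. The count was 29, 12, 11, 1, 0 and 0 without 2N+ replicate 4, 3N+ replicate 2, 3N+ replicate 5, 3N+ replicate 8, 2N+ replicate 1 and 2N+ replicate 2. It was 67 on RPKM as deposited, 315 with connexin 43 as a term and 0 with body weight as a term. Diploid fish without cataract weighed 110 to 345 g and those with low lenses 460 to 840 g. Triploid fish weighed 280 to 700 g and 325 to 860 g in the same order. In diploids these weights did not overlap, so cataract and body weight cannot be told apart there.

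N-myristoyltransferase 1 (Unigene8559), the enzyme that adds a myristoyl group to proteins, was 10.9 to 49.2 RPKM in high lenses, 16.2 to 24.8 RPKM in low lenses and 3.08 to 15.3 RPKM in lenses without cataract. In low lenses against lenses without cataract the rise was 1.60 ± 0.25 (log2, SE; adjusted p = 0.0271), and stood at 0.09 ± 0.34 (adjusted p = 0.961) in high against low lenses. A Maf-like contig (Unigene8519), of a family of transcription factors that drive crystallin genes, was 13.4 to 25.9 RPKM in high lenses, 15.5 to 25.9 RPKM in low lenses and 7.31 to 14.7 RPKM in lenses without cataract. It rose by 0.64 ± 0.11 (adjusted p = 0.0383) in low lenses, and stood at -0.10 ± 0.16 (adjusted p = 0.907) in high against low lenses. All 6 low lenses exceeded every lens without cataract for both transcripts. Both were named for their small p-values in this comparison of the same lenses, so this is no separate support. The share over all tested unigenes was not counted.

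A pair of named contigs fell in low lenses against lenses without cataract. A tripartite motif protein 60-like contig (Unigene5114) was 4.796 to 8.41 RPKM in high lenses, 4.15 to 9.68 RPKM in low lenses and 9.42 to 16.2 RPKM in lenses without cataract (-1.14 ± 0.20, adjusted p = 0.0417, for low against no cataract), with -0.10 ± 0.24 (adjusted p = 0.935) in high against low lenses. An uncharacterised contig like human C18orf25 (Unigene4967) was 1.38 to 7.63 RPKM in high lenses, 3.34 to 6.52 RPKM in low lenses and 6.06 to 15.01 RPKM in lenses without cataract (-1.11 ± 0.18, adjusted p = 0.0271). It stood at -0.59 ± 0.30 (adjusted p = 0.608) in high against low lenses. An attractin-like contig (Unigene3900) did not pass in low against no cataract (-1.10 ± 0.22, adjusted p = 0.0737).

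Adenosine deaminase, a DEPTOR-like contig and a galectin-3-like contig, chosen because they differed with cataract in earlier results of these data, lay in between in low lenses. Adenosine deaminase (Unigene4383), which turns adenosine into inosine, was 8.04 to 29.4 RPKM (median 16.1 RPKM) in high lenses, 11.3 to 58.9 RPKM (median 30.7 RPKM) in low lenses and 44.7 to 70.9 RPKM in lenses without cataract. The DEPTOR-like contig (Unigene4123), named for an inhibitor of mTOR, was 12.9 to 46.2 RPKM (median 35.5 RPKM), 26.8 to 80.7 RPKM (median 54.3 RPKM) and 69.7 to 113.4 RPKM in the same order. All 8 high lenses and 5 of 6 low lenses lay below every lens without cataract for both. Over all tested unigenes, 32 of 17253 (0.185%) had all 8 high lenses below. The share for the low lenses was not counted. Both contigs were chosen for a difference with cataract in these data, so these counts are descriptions only. The high against low differences were -0.999 ± 0.38 (adjusted p = 0.441) and -0.93 ± 0.36 (adjusted p = 0.446). The galectin-3-like contig (CL99.Contig1), a carbohydrate-binding protein, was 6.72 to 18.2 RPKM in high lenses, 2.34 to 10.1 RPKM in low lenses and 2.15 to 4.996 RPKM in lenses without cataract (0.83 ± 0.29 for high against low, adjusted p = 0.391).

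**Figure D5:**
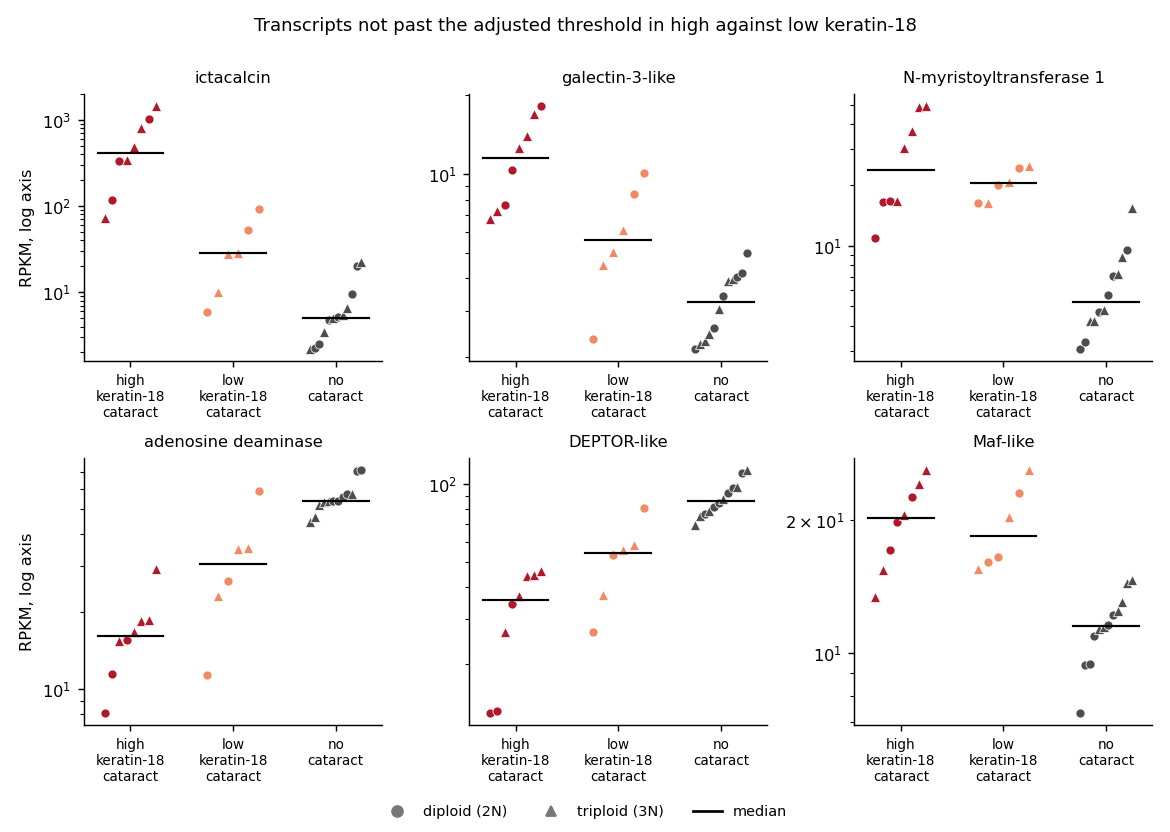
RPKM on log axes of 6 transcripts in high keratin-18 cataract lenses, low keratin-18 cataract lenses and lenses without cataract, from left to right, with 1 point per library and a line at the median. The high and low lenses overlap in all 6 panels. For the N-myristoyltransferase and the Maf-like contig all 6 low lenses lie above the lenses without cataract, whose maxima are 15.3 and 14.7 RPKM. These contigs were picked by that comparison.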

How the data were processed

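RNA from 26 lenses was sequenced as poly(A) libraries of single 50 base reads, per the labels. The authors deposited 1 table of RPKM values for 26681 unigenes, assembled contigs with their best protein hit (13784 have one). Which aligner, assembler and genome build they used is not given in the sources used here. Dashes were read as 0. Whole reads were recovered for 100% of unigenes within 0.01 reads, and their sums of 9.76 to 11.95 M limit precision for rare contigs. Unigenes with over 10 reads at the median library size in at least 6 libraries and at least 15 reads in all were tested with limma 3.58.1 (R 4.3.3; trend, robust, two-sided) on log2(RPKM scaled by trimmed mean of M values + 0.5), with ploidy as a term and Benjamini-Hochberg adjustment at 0.05 over all unigenes. The pseudocount understates the change of contigs that are low in one set, and levels are RPKM as deposited, while differences are on the scaled log2 values. On simulated counts of the high and low lenses, the test called 46% of the contigs set to change 2-fold, 89% of those set to change 4-fold and 3 of 17057 left unchanged. Each contig was drawn on its own, with no variation shared between contigs, and the sets were not chosen from the simulated counts. These figures therefore do not give the error rates of the real comparison.

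Named contigs had a protein hit, passed the high against low test and had a mean abundance of at least 1 on a log2 scale of library-scaled reads (up to 15 highest and 15 lowest). Also named were the leading members of gene lists built from words in the hits, the 5 smallest p of the other comparisons, and 6 contigs fixed by name. The members and lists were chosen with earlier results of these data known. Alternatives were scaling, pseudocount, filter, weighting, covariates, subsets and leaving out each lens. Measures were compared with exact permutation tests (Python 3.11.15, scipy 1.17.1). RefSeq's salmon table matched 2159 of 9607 hits that carry a RefSeq accession and was used for no coordinate.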

Additional observations from a re-analysis of the deposited data

Results flagged for a closer look

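Of the contigs named in the text, 49 were checked in the high and low sets for a lens far from the rest. The check used the scaled log2 values and made 98 sets. The other named contigs, such as Six3 and vimentin, were not checked. Chance alone flags about 5% of sets, and 6 were flagged. In the low set, clusterin (CL938.Contig1) was 31.0 RPKM in 2N+ replicate 2 against 5.64 to 11.4 RPKM in the other 5. The Maf-like contig (Unigene8519) was 25.9 RPKM in 3N+ replicate 8 against 15.5 to 23.1 RPKM in the others, where the gap is larger on the scaled values. Annexin A5 (Unigene4403) was 13.04 RPKM in 2N+ replicate 1 against 6.62 to 10.1 RPKM, and the keratin-18-like contig CL2963.Contig1 was 1.25 RPKM there against 2.53 to 3.72 RPKM. In the high set, a cadherin-2 contig (Unigene602) was 25.2 RPKM in 3N+ replicate 6 against 4.98 to 13.02 RPKM. The attractin-like contig (Unigene3900) was 0.697 RPKM in 2N+ replicate 3 against 1.83 to 3.91 RPKM.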

How the results depend on the processing

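The 39 unigenes of high against low lenses all kept their sign under every alternative run. The alternatives reused the lenses that picked these unigenes, so the kept sign is no separate support. The count was 19 with a pseudocount of 2, 22 with voom and quality weights (14 higher, 8 lower), 12 with body weight as a term, 124 over all 26 libraries, 381 against keratin-18 as a continuous term, and 83 with component 1 as a term, added after seeing the data. It was 0 in diploids alone and 0 in triploids alone, where fewer lenses entered. It was 5 to 84 without 1 lens. With the replicate block it was 0, with 1150 unadjusted p below 0.05. Same-numbered 2N+ and 3N+ lenses correlated above 0.1 in 3 of 6 pairs, so the numbers were not read as a pairing. For low lenses against lenses without cataract the count was 67 on RPKM as deposited, 315 with connexin 43 as a term, 0 with body weight and 0 with the replicate block, and 0 to 29 without 1 lens. The interaction with ploidy stayed at 0 calls in the alternatives run. The cause of these changes was not tested. The edgeR and DESeq2 fits on recovered reads were not run.

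Reversals concerned differences that stood near 0 in the report and fish measures. The glucose-6-phosphate isomerase contig CL2696.Contig1 turned to 0.0553 on RPKM as deposited, 0.0462 with the replicate block and 0.0119 on continuous keratin-18. The Maf-like contig (Unigene8519) turned to 0.0127 on RPKM as deposited, 0.00148 with connexin 43 as a term and 0.0186 with the replicate block. The tripartite motif contig (Unigene5114) turned to 0.00114 on RPKM as deposited, 0.0808 with connexin 43, 0.308 in triploids alone, 0.0195 on continuous keratin-18 and 0.0298 with component 1, and ran from -0.283 to 0.0762 without 1 lens, above 0 without 2N+ replicate 4. The N-myristoyltransferase (Unigene8559) turned to -0.758 in diploids alone and ran from -0.0549 to 0.262 without 1 lens, below 0 without 3N+ replicates 1, 2 and 5. Without 1 lens, the high minus low difference ran from -0.284 to 0.0388 for log2 body weight (above 0 without 3N+ replicate 1). It ran from -1.475 to 0.225 cm for length (above 0 without 2N+ replicate 1 and 3N+ replicates 1 and 5), and from -0.793 to -0.505 M for reads. The adjusted exact permutation p for reads was 0.035 without 2N+ replicate 3 (-0.7695 M) and 0.0155 without 3N+ replicate 8.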

Other observations

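The first 3 principal components of the 14 cataract libraries held 38.3%, 14.8% and 7.4% of the variance. On the second, high lenses ran from -8.93 to 44.0 and low lenses from -28.1 to -18.7, without overlap. On the first, high lenses ran from -53.0 to 60.4 and low lenses from -46.0 to 51.2. These values describe the libraries that the keratin-18 split had already separated and carry no test.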
